A study of Mus musculus with 4 samples.

Results

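Voltage-gated sodium and calcium channels and the potassium channels were examined as a group of 120 genes in sorted cells of control and *Eya1*cKO embryonic kidneys. The members were the protein-coding genes of the count files whose mouse symbol starts with *Kcn* or *Cacn*, or with Scn followed by a digit, and that had at least 10 reads summed over the 4 libraries. By symbol alone there were 134 such genes among 52636 genes in the files, and 14 of them fell under 10 reads. Of the 120 members, 98 passed the low-count filter used for testing, as did 19041 genes in all. The 3 members nearest the limit were *Kcnh4*, *Kcnj9* and *Cacna2d4* with 10, 11 and 12 reads, and just outside it lay *Cacna1i* with 9 reads and *Kcnj3*, *Cacna1f* and *Kcnj1* with 8 each. By ion, the members were 13 sodium channel genes, 22 calcium channel genes, 84 potassium channel genes and *Kcnrg*, whose product regulates potassium channels without being part of one.

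*Eya1* encodes a transcriptional coactivator and phosphatase that nephron progenitor cells need for their maintenance, and the comparison asks which genes change when it is deleted in these cells. Control embryos carried the *Eya1*CreER allele, a tamoxifen-inducible Cre placed in *Eya1* itself, with the tdTomato reporter, and *Eya1*cKO embryos carried *Eya1*CreER, floxed *Eya1* (*Eya1* fl/fl) and the same reporter, so that both genotypes had the CreER allele and both received tamoxifen. Kidneys were taken about 48 h after tamoxifen was started, at about E12.75, and 5000 FACS-sorted tdTomato+ cells went into each of 2 control and 2 *Eya1*cKO libraries. The labels and the methods of the study differ in how many kidneys and females they give, and the cell suspensions of a genotype were combined before sorting, so that p-values measure the spread between libraries, which may be technical.

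Voltage-gated sodium and calcium channels open when a membrane depolarises, sodium channels carrying the fast upstroke of action potentials and calcium channels turning the signal into calcium entry. Most potassium channels bring the membrane back towards rest or hold it there, and they form a large and varied family. Each channel has 1 or more pore-forming alpha subunits, often joined by accessory subunits that set its trafficking and gating. In the kidney these genes are best known from salt transport in the mature tubule and from the smooth muscle and endothelium of vessels, and elsewhere in the embryo from neurons, muscle and endocrine cells.

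The libraries held from 17457452 to 37999342 reads counted on genes, the *Eya1*cKO libraries being the shallower pair. Reads on no annotated feature made up 12.9% to 13.9% of the reads in controls and 20.9% to 22.7% in *Eya1*cKO, and unaligned reads 6.32% to 6.69% and 12.7% to 12.9%. *Eya1* itself had 6612 and 6420 reads in controls and 377 and 219 in *Eya1*cKO (log2 fold change -3.60, edgeR adjusted p = 1.9e-04). The summed markers of nephron progenitors fell from 2088 and 2090 to 430 and 390 CPM (counts scaled to a common library total), and all 10 tested were called lower. These 10 include the deleted *Eya1* itself, which gave 189.3 and 171.5 CPM of the control sums and 16.68 and 12.48 CPM of the *Eya1*cKO sums. Summed markers of 4 other cell types were higher in both *Eya1*cKO libraries than in both controls, namely podocytes (888 and 908 against 2806 and 2869 CPM, 7 of 8 called higher), stroma (2835 and 2821 against 5838 and 6113 CPM, 6 of 8), endothelium (660 and 676 against 1185 and 1228 CPM, 8 of 8) and nephron tubule (218 and 206 against 511 and 493 CPM, 5 of 7). The steroid-producing adrenal cortex rose from 37.0 and 28.3 to 791 and 747 CPM with 9 of 9 called, and sympathoadrenal cells from 48.0 and 54.5 to 605 and 660 CPM with 10 of 15 called higher and 1, *Elavl4*, lower. In bulk libraries a change in the number of cells of a type and a change in RNA per cell cannot be told apart, and the part of these lists in the channel results was not tested.

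Before the values, the stretch that defines most potassium channel genes is shown. Its 15 capital letters are the codons of the selectivity filter, the narrow part of the pore that passes potassium in preference to sodium, searched in frame as any codons for threonine, a hydrophobic residue (T as the middle base), glycine, tyrosine and glycine in a row, on the coding strand of the longest coding sequence of each gene in GENCODE M21 (GRCm38). These are the 4 pore subunit genes of potassium channels that were called higher in *Eya1*cKO, and *Kcna4*, which had no read in either control.
Kcnk3: atcaccACCATCGGCTATGGTcatgcggcg
Kcnk9: atcacaACTATCGGATATGGAcatgctgca
Kcna2: atgacaACTGTAGGCTATGGAgacatggtt
Kcnc4: atgacaACGCTTGGCTATGGGgacatgtat
Kcna4: atgacaACTGTGGGCTATGGGgacatgaag
The *Kcna2* stretch lies in coding sequence of exon 3 of 3 at chr3:107105218-107105247 (+), that of *Kcnc4* in exon 2 of 4 at chr3:107447790-107447819 (-), and that of *Kcna4* in exon 2 of 2 at chr2:107296489-107296518 (+). In *Kcnk3* and *Kcnk9* an intron divides the stretch after its 13th base. The *Kcnk3* parts lie at chr5:30588587-30588599 in exon 1 and chr5:30621891-30621907 in exon 2 (+), and the *Kcnk9* parts at chr15:72545997-72546009 in exon 1 and chr15:72513028-72513044 in exon 2 (-).

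The codons were found in 47 of 69 potassium channel pore subunits (68.1%) and in 69 of all 21584 genes with a coding sequence (0.32%). No match was present in the 15 potassium channel accessory genes or in the 35 sodium and calcium channel genes. All 7 Kv1, 4 Kv3, 9 silent Kv and 5 Kv7 members matched, against 6 of 11 K2P, 9 of 12 inward rectifier and 1 of 4 SK and IK genes, and none of the 8 Kv10 to Kv12 genes, so that these letters do not cover every potassium pore. Among K2P genes the intron divided all 6 matching stretches after the same 13th base, whereas in the other classes the stretch lay in 1 exon in 37 of the 40 genes examined (1 further match was not analysed here) and was divided after base 14 in the 3 Kv4 genes. All values below were counted over whole genes and do not show which exons were read.

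As a group, channel genes were low in these cells. The median tested channel gene had 3.20 CPM in controls against 12.6 CPM for all genes tested, and 0.615 against 3.64 CPM per kb of exon, although channel genes were longer, with a median exonic length of 5134 against 3710 bases. Reads on channel genes made up 0.108% of gene counts in each control and 0.160% and 0.157% in *Eya1*cKO, and their summed level was 1092 and 1094 CPM in controls and 1578 and 1562 CPM in *Eya1*cKO. Both *Eya1*cKO sums lay above both controls, 1.44-fold on average. The exact permutation test could not decide on this difference, as its two-sided p of 0.333 is the smallest that 2 against 2 libraries allow. The higher sum did not come with more genes detected, as 114 and 112 members had a read in the controls and 105 and 104 in the shallower *Eya1*cKO libraries.

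Of the 98 genes tested, 10 rose and none fell beyond the spread between libraries by edgeR's quasi-likelihood test, at a Benjamini-Hochberg adjusted p under 0.05 over all 19041 genes. The 10 genes called higher were 10.2% of the 98, where 9.56% of all genes tested were called, 5.15% higher and 4.41% lower. At an unadjusted p under 0.05 there were 22 channel genes higher and 6 lower, beside 14.2% and 14.6% of all genes tested, and DESeq2 called 17 higher, beside 9.29% of all genes with an adjusted p, and 1 lower (6.64% of all genes). The 17 include *Cacng3*, a relative of the muscle gamma subunit with 0 and 1 reads in controls and 6 and 43 in *Eya1*cKO, which was not among the 98. The fitted log2 fold change was above 0 in 65 and below 0 in 33 of the 98, and above 0 in 51.1% of all genes. Both *Eya1*cKO libraries lay above both controls for 34 channel genes and below them for 14, and for 50 the groups overlapped, while 25.3% of all genes lay above and 30.0% below. Over the channel genes tested the median log2 fold change was 0.55, and over all genes tested it was 0.016. Without *Eya1*cKO replicate 1 or 2, 37 and 36 channel genes were called higher (18.7% and 19.8% of all genes), whereas without either control library no channel gene and 23 genes in all were called. With the library number as a replicate block, 5 channel genes were called higher, beside 1.88% of all genes called higher and 3.26% called in either direction. *Kcnk9*, *Scn3b* and *Kcnc4* had under 10 reads in a control library and passed the low-count filter through the *Eya1*cKO pair. With at least 10 reads required in every library, 7 of the 10 calls were tested and all 7 held. The 10 called genes together had 305 and 288 CPM in controls and 615 and 638 CPM in *Eya1*cKO, and the other 110 members 787 and 805 CPM in controls and 963 and 923 CPM in *Eya1*cKO.

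**Figure D1:**
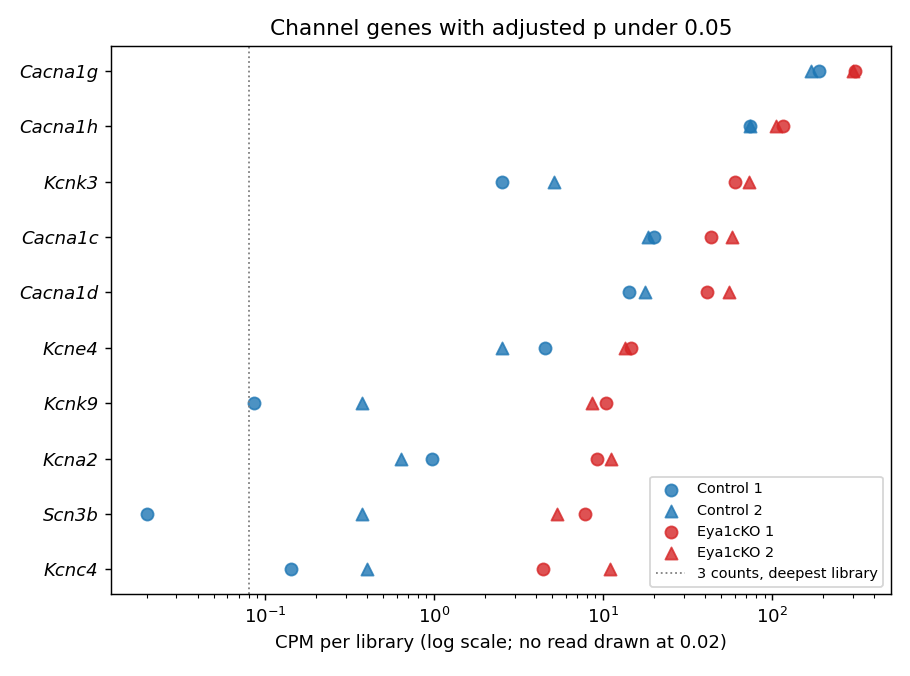
Levels of the 10 channel genes with adjusted p under 0.05, 1 point per library, as CPM on a log axis (circles are library 1 and triangles library 2 of a genotype, blue control and red *Eya1*cKO; a library without a read is drawn at 0.02 CPM and the dotted line is 3 counts in the deepest library). Both *Eya1*cKO points lay above both control points for every gene, from *Kcnk3* (2.52 and 5.10 against 60.0 and 72.3 CPM) to the nearest pair, *Cacna1h* (74.1 and 74.2 against 116 and 105 CPM).

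Sodium channels were represented by 13 members, of which 12 were tested and 1 (8.33%) was called higher, beside 5.15% of all genes tested. That gene was *Scn3b* (ENSMUSG00000049281, chr9:40269217-40291618), a beta subunit that modifies the gating and surface delivery of sodium channels. *Scn3b* had 0 and 14 reads in controls and 176 and 94 in *Eya1*cKO, or 0 and 0.374 against 7.79 and 5.36 CPM. The groups did not overlap, and the log2 fold change was 5.09 ± 1.04 (SE, n = 2 and 2; edgeR adjusted p = 0.020, and 0.056 with the replicate block), a size that rests on few control reads, at 4.13 without Control replicate 1 and 10.39 without Control replicate 2. *Scn2b*, another beta subunit, did not pass and had 9.16 and 8.76 CPM in controls and 18.1 and 7.41 CPM in *Eya1*cKO.

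None of the 8 alpha subunits tested passed, and their summed level was 66.0 and 64.2 CPM in controls against 76.8 and 87.3 CPM in *Eya1*cKO. *Scn8a*, the Nav1.6 pore of mature axons, took most of their reads, with 1461 and 1572 reads in controls and 862 and 984 in *Eya1*cKO. Scaled to depth, the *Scn8a* levels overlapped at 41.8 and 42.0 against 38.1 and 56.1 CPM (log2 fold change 0.14 ± 0.22, adjusted p = 0.71). *Scn3a*, the Nav1.3 pore prominent in embryonic neurons, lay higher in both *Eya1*cKO libraries without passing, at 2.38 and 1.76 against 8.63 and 8.61 CPM (log2 fold change 2.06 ± 0.56, adjusted p = 0.065, DESeq2 adjusted p = 0.0092). *Scn9a*, the Nav1.7 pore of sensory and sympathetic neurons, had 3.01 and 3.18 against 7.79 and 8.49 CPM (adjusted p = 0.13).

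Calcium channels held 22 members, 16 of them tested, and 4 were called higher, beside 5.15% of all genes tested. All 4 were pore subunits. The T-type (Cav3) channels, which open at small depolarisations and pace repetitive activity, took the most reads of all calcium channel pores, and per kb of exon *Cacna1g* stood at 17.6 ± 1.41 CPM per kb in controls (SD, n = 2). *Cacna1g* (Cav3.1, ENSMUSG00000020866, chr11:94408391-94474198) had 6599 and 6318 reads in controls and 6968 and 5244 in *Eya1*cKO. At the lower depth of the *Eya1*cKO libraries these were 189 and 169 against 308 and 299 CPM. The groups did not overlap, and *Cacna1g* rose 1.70-fold, from 179 ± 14.3 to 304 ± 6.67 CPM (SD, n = 2; log2 fold change 0.77 ± 0.09 SE, edgeR adjusted p = 0.0050). *Cacna1h* (Cav3.2, ENSMUSG00000024112, chr17:25374285-25433783), known in sensory neurons and in the aldosterone-producing cells of the adrenal, had 74.1 and 74.2 CPM in controls and 116 and 105 CPM in *Eya1*cKO. It rose 1.49-fold (log2 fold change 0.58 ± 0.12, adjusted p = 0.032, and 0.11 with the replicate block), the smallest change called among channel genes, and shares 1.6% of its exonic length with *Tpsg1* on the opposite strand.

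Of the 3 L-type (Cav1) pores, 2 were called. *Cacna1c* (Cav1.2, ENSMUSG00000051331, chr6:118587240-119196418), the L-type channel of heart, smooth muscle and neurons, had 696 and 690 reads in controls and 981 and 1006 in *Eya1*cKO, or 19.9 and 18.4 against 43.4 and 57.4 CPM (log2 fold change 1.38 ± 0.23, adjusted p = 0.015, and 0.063 with the replicate block). *Cacna1d* (Cav1.3, ENSMUSG00000015968, chr14:30039939-30491455), which opens at lower voltages and is known in the sinoatrial node, hair cells and endocrine cells, had 494 and 657 reads against 928 and 972. Its level rose 3.04-fold, from 14.2 and 17.6 to 41.1 and 55.4 CPM (log2 fold change 1.58 ± 0.25, adjusted p = 0.014), with 4.7% of its exonic length shared with *Chdh* on the opposite strand. Even the reads, before scaling, were higher in *Eya1*cKO for both genes, although those libraries were shallower. The remaining one, *Cacna1s* of skeletal muscle, was not called, at 20 and 32 reads in controls and 3 and 56 in *Eya1*cKO. Markers of skeletal muscle had 9.82 and 9.64 CPM in controls and 18.4 and 5.07 CPM in *Eya1*cKO with none of 2 tested called, and those of smooth muscle 28.3 and 29.5 against 48.5 and 48.4 CPM. Of the 6 smooth muscle markers 1, *Acta2*, was called higher (16.8 and 19.9 against 38.9 and 39.3 CPM), 4 lay lower in both *Eya1*cKO libraries without being called, and *Cnn1* and *Actg2* had no read there.

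None of the 8 accessory calcium channel subunits tested, which carry the pores to the membrane and tune them, was called. Summed beta subunits were at 169 and 164 CPM in controls and 166 and 130 CPM in *Eya1*cKO, and alpha2delta subunits at 143 and 137 against 134 and 121 CPM. *Cacnb3*, per kb of exon the highest channel gene in controls at 23.5 ± 0.031 CPM per kb (SD, n = 2), had 20.7 CPM per kb in *Eya1*cKO (adjusted p = 0.38). *Cacna2d1*, the alpha2delta subunit that binds gabapentin, had 122 and 113 CPM in controls and 93.5 and 79.7 CPM in *Eya1*cKO without overlap and without passing (log2 fold change -0.43 ± 0.13, adjusted p = 0.087). *Cacng4*, a transmembrane relative of the muscle gamma subunit that also serves AMPA receptors, had 44.7 and 47.0 against 55.6 and 54.2 CPM (adjusted p = 0.32). The Cav2 pores of nerve terminals were low, and *Cacna1a*, the P/Q-type pore, overlapped at 13.1 and 18.1 against 14.96 and 11.51 CPM.

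Potassium channels gave 5 of the 10 calls from 69 tested genes (7.25%, beside 5.15% of all genes tested called higher). Of these 5, 2 were K2P channels, whose subunits carry a pair of pore domains each. *Kcnk3* and *Kcnk9* encode TASK-1 and TASK-3, acid-sensitive leak channels that hold the resting potential of adrenal cortical cells, motor neurons and chemosensory cells. *Kcnk3* (ENSMUSG00000049265, chr5:30588170-30625271) had 88 and 191 reads in controls and 1355 and 1269 in *Eya1*cKO, in libraries of lower depth. It shares 5.8% of its exonic length with *Gm9899* on the opposite strand. The groups lay far apart, at 3.81 ± 1.83 and 66.2 ± 8.75 CPM (SD, n = 2), a 17.4-fold rise (log2 fold change 4.09 ± 0.32 SE, adjusted p = 0.0011; 4.68 without Control replicate 2). Per kb of exon only *Cacna1g* and *Cacnb3* stood above *Kcnk3* among channel genes in *Eya1*cKO, where it had 16.6 ± 2.20 CPM per kb, from 0.958 ± 0.459 in controls.

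*Kcnk9* (ENSMUSG00000036760, chr15:72501089-72546340) had 3 and 14 reads in controls and 234 and 151 in *Eya1*cKO. These were 0.0859 and 0.374 against 10.4 and 8.61 CPM, with no overlap and a log2 fold change of 5.32 ± 0.82 (adjusted p = 0.0067). Its size rests on few control reads, at 4.64 without Control replicate 1 and 6.71 without Control replicate 2. None of the other 7 K2P genes tested passed, and the class sum was 51.0 and 57.2 CPM in controls and 123 and 149 CPM in *Eya1*cKO. *Kcnk5*, an alkaline-activated channel of the proximal tubule, was the most counted of the class in controls and overlapped at 19.1 and 21.9 against 19.2 and 32.2 CPM. *Kcnk1* and *Kcnk2*, a weakly conducting and a stretch-sensitive leak channel, were not called, and the sign of the fitted log2 fold change turned for both when 1 library was left out (-1.41 to 0.165 and -0.291 to 0.269).

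Among voltage-gated potassium pores, *Kcna2* and *Kcnc4* were called. *Kcna2* (Kv1.2, ENSMUSG00000040724, chr3:107101146-107115005), a low-threshold channel of axons, had 34 and 24 reads in controls and 207 and 195 in *Eya1*cKO. It rose 12.6-fold, from 0.974 and 0.641 to 9.16 and 11.1 CPM (log2 fold change 3.64 ± 0.65, adjusted p = 0.018, and 0.056 with the replicate block). *Kcnc4* (Kv3.4, ENSMUSG00000027895, chr3:107438303-107459552), a fast-inactivating channel of neurons and muscle, had 5 and 15 reads against 99 and 193. It rose 28.3-fold without overlap between the groups (log2 fold change 4.70 ± 0.98, adjusted p = 0.022), a size that also rests on few control reads, at 5.61 without Control replicate 2 and 3.95 without *Eya1*cKO replicate 2, and its levels in the *Eya1*cKO libraries differed more between themselves than those of *Kcna2*.

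*Kcna4* (Kv1.4), an A-type channel, had no read in either control and 38 and 18 reads in *Eya1*cKO. Taking 3 reads in each control library as the limit, it was at least 16.3-fold higher, but its adjusted p was 0.051 by edgeR, and DESeq2 called it. *Kcnc1* (Kv3.1) showed the same kind of pattern below the test's filter, with 0 and 0 against 7 and 16 reads, at least 7.36-fold higher by the same limit. *Kcna3* (Kv1.3), best known from lymphocytes, went the other way without passing, at 81 and 88 reads in controls and 13 and 1 in *Eya1*cKO (log2 fold change -2.73, adjusted p = 0.13, and between -5.27 and -2.03 when 1 library was left out), while immune cell markers stood at 128 and 127 against 132 and 140 CPM with none of 6 called. The Kv1 class thus held a called gene, a gene absent from both controls and a gene near its limit in 1 *Eya1*cKO library.

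The Kv4 channels, which carry transient A-type currents, were higher in both *Eya1*cKO libraries as a sum, at 30.1 and 27.9 against 47.5 and 56.4 CPM. *Kcnd3* (Kv4.3) had 12.3 and 11.4 CPM in controls and 22.6 and 30.9 CPM in *Eya1*cKO, with an adjusted p of 0.059 by edgeR and 0.0093 by DESeq2. *Kcns3* (Kv9.3), a silent subunit that forms channels only together with Kv2 pores, had 7.27 and 8.76 against 26.7 and 15.7 CPM, with an adjusted p of 0.064 by edgeR and 0.014 by DESeq2. *Kcnh2* (ERG1, the channel of cardiac repolarisation), the most counted voltage-gated potassium pore, overlapped at 51.3 and 59.3 against 60.7 and 47.5 CPM, with a fitted log2 fold change of -0.018 whose sign turned when libraries were scaled by totals alone (0.021).

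The fifth potassium call was an accessory subunit. *Kcne4* (ENSMUSG00000047330, chr1:78816758-78820028), a single-pass subunit that inhibits several Kv channels, had 158 and 95 reads in controls and 330 and 236 in *Eya1*cKO. Its 4.53 and 2.54 CPM in controls and 14.6 and 13.5 CPM in *Eya1*cKO did not overlap (log2 fold change 2.01 ± 0.47, adjusted p = 0.043), and its call was the one nearest the threshold. That call was lost without the low-count filter, by edgeR's legacy method, with the replicate block (adjusted p = 0.10) and with thinned counts. The cytoplasmic Kv beta subunits went the other way as a sum, at 21.1 and 22.1 against 12.8 and 18.5 CPM, with none called. Their most counted member, *Kcnab2*, had 374 and 592 reads in controls and 175 and 110 in *Eya1*cKO (log2 fold change -0.91 ± 0.44, adjusted p = 0.22).

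No calcium- or sodium-activated potassium channel was called by edgeR. *Kcnn3* (SK3), a voltage-independent channel opened by calcium, had 9.88 and 10.3 against 20.9 and 18.9 CPM, with an adjusted p of 0.098 by edgeR and 0.046 by DESeq2. *Kcnt2* (Slick), opened by sodium, had 10.2 and 10.4 against 17.3 and 25.9 CPM, with an adjusted p of 0.11 by edgeR and 0.049 by DESeq2. *Kcnma1*, the BK pore, had 195 and 242 reads in the controls and 226 and 200 in the shallower *Eya1*cKO libraries (adjusted p = 0.25). By CPM these 3 genes were higher in 2 of 2 *Eya1*cKO libraries than in either control, where 25.3% of all genes tested were. Among the other SK, IK and sodium-activated genes, *Kcnn2* and *Kcnt1* also lay higher in both, and *Kcnn1* and *Kcnn4* overlapped.

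A set of 6 genes had an unadjusted p under 0.05 in the downward direction, where 14.6% of all genes tested did, and none of the 6 passed the adjustment in edgeR. They were *Cacna2d1*, *Kcna3*, *Kcnf1*, *Kcnq5*, *Kcnj11* and *Kcnh6*. *Kcnj11* (Kir6.2, the pore of ATP-sensitive channels) had 53 and 34 reads in controls and none in either *Eya1*cKO library, at least 7.99-fold lower with 3 reads as the limit (adjusted p = 0.11 by edgeR and 0.043 by DESeq2). *Kcnh6* (ERG2) had 18 and 20 reads in controls and none in *Eya1*cKO, at least 3.46-fold lower by that limit. *Kcnf1* (Kv5.1), another silent subunit, had 207 and 164 reads against 0 and 22, and *Kcnq5* (Kv7.5), an M-current channel, 166 and 181 against 31 and 8. At the shallower depth of *Eya1*cKO, 3 reads correspond to 0.133 and 0.171 CPM, compared with 0.0859 and 0.0801 CPM in controls.

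**Figure D2:**
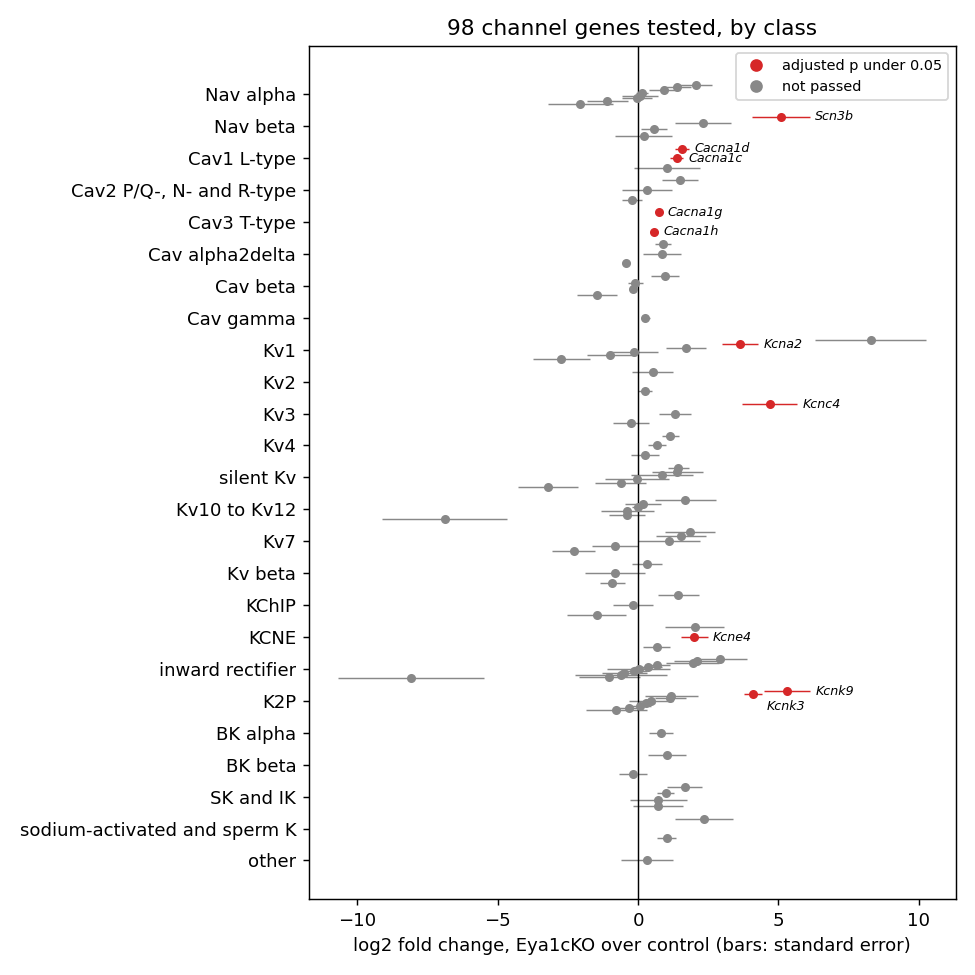
Fitted log2 fold change of *Eya1*cKO over control for each of the 98 channel genes tested, grouped by class on the vertical axis, with bars of 1 standard error and red points for adjusted p under 0.05. The red points all lie to the right of 0, the farthest at 5.32 for *Kcnk9*, and the grey points farthest from 0, *Kcna4* at 8.30 and *Kcnj11* at -8.09, are genes without a read in both libraries of a genotype, whose fitted values are not bounds.

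Channel genes varied more between the *Eya1*cKO libraries than between the controls. On the log2(CPM + 0.5) scale, the difference between libraries of a genotype had an SD of 0.464 in controls and 1.47 in *Eya1*cKO over the 98 genes tested. No channel gene differed over 4-fold between the controls, and 18 of 98 (18.4%) did between the *Eya1*cKO libraries, beside 0.0788% and 9.44% of all genes tested. *Kcnh3*, a Kv12 pore, had 75 reads in each control and 268 and 1 in *Eya1*cKO. *Cacnb4*, a calcium channel beta subunit, had 393 and 401 reads against 160 and 2, and *Kcnip3*, a calcium-sensing Kv4 partner also known as the transcriptional repressor DREAM, 206 and 209 against 564 and 63. *Kcnt1* and *Kcnip1* were highest in *Eya1*cKO 2, with 49 and 304 reads and with 0 and 123 reads in the *Eya1*cKO pair. Neither *Eya1*cKO library was thus the higher one throughout.

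**Figure D3:**
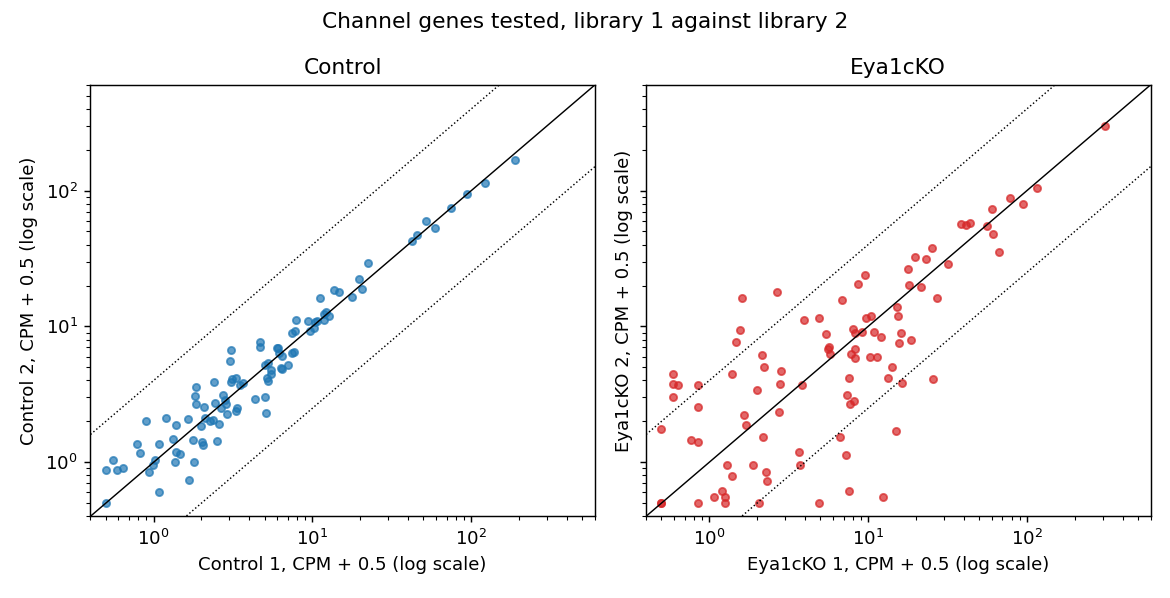
CPM + 0.5 of each channel gene tested in library 1 (horizontal, log axis) and library 2 (vertical, log axis) of controls on the left and *Eya1*cKO on the right; the solid line marks equal values and the dotted lines a 4-fold difference. No control point lies outside the dotted lines and 18 of the 98 *Eya1*cKO points do.

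**Figure D4:**
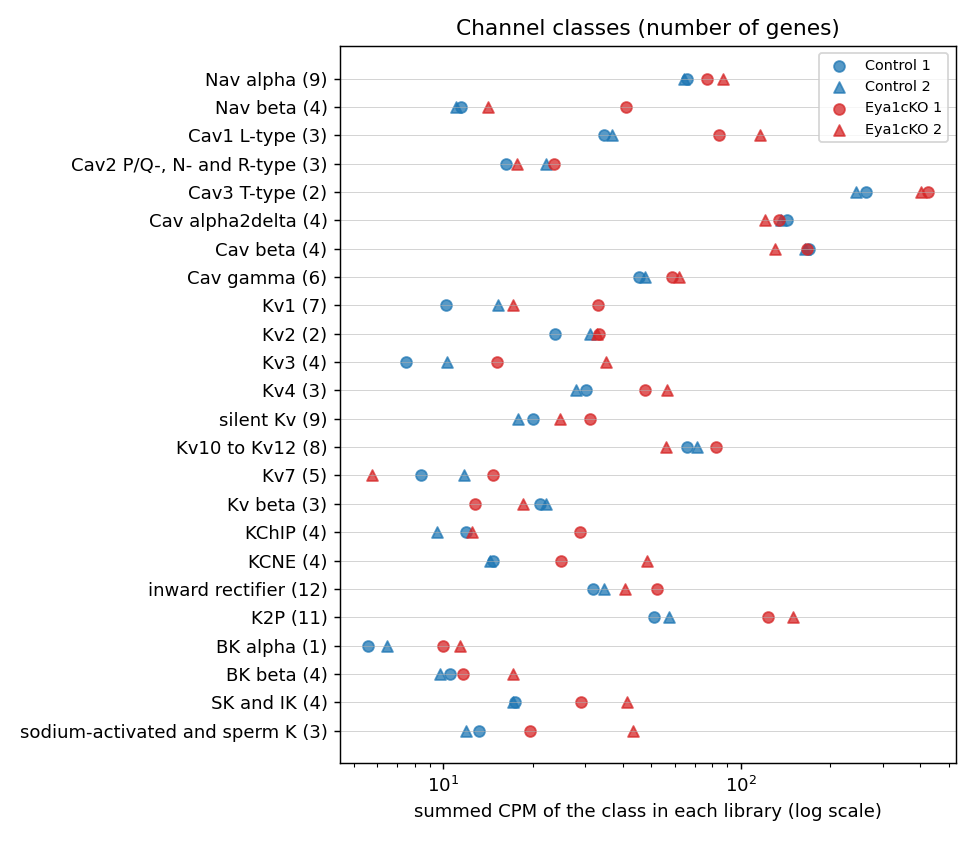
Summed CPM of the members of each channel class in each library, on a log axis, with the number of members in brackets; circles are library 1, triangles library 2, blue control and red *Eya1*cKO. The T-type sum of 263 and 243 CPM in controls and 424 and 404 CPM in *Eya1*cKO is the largest. Most class sums, K2P and L-type among them, lie higher in both *Eya1*cKO libraries. Only the Kv beta and alpha2delta sums lie lower in both, and the Cav2, Cav beta, Kv7 and Kv10 to Kv12 sums overlap.

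Genes that work with these channels but lie outside the families were read from a list of 40, of which 36 were tested. Of these, 4 were called higher and 1 lower, beside 5.15% and 4.41% of all genes tested, and the median log2 fold change was 0.9985, beside 0.016 over all genes tested. *Hcn4*, the pacemaker channel opened by hyperpolarisation, had 623 and 627 reads in controls and 1354 and 862 in *Eya1*cKO (log2 fold change 1.67 ± 0.21, adjusted p = 0.0063). *Unc80*, a subunit of the sodium leak channel complex, had 27 and 4 against 345 and 105 reads (log2 fold change 4.69 ± 0.94, adjusted p = 0.022, and between 3.78 and 6.62 when 1 library was left out). *Abcc9*, the sulfonylurea receptor SUR2 that partners Kir6 pores, had 28.6 and 30.3 CPM in controls and 75.1 and 67.8 CPM in *Eya1*cKO (adjusted p = 0.0065), while its pores *Kcnj8* and *Kcnj11* did not pass.

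The ankyrins, which anchor sodium and potassium channels to the spectrin skeleton, were called in opposite directions, and both calls were lost with the replicate block (adjusted p = 0.10 for *Ank2* and 0.092 for *Ank3*). *Ank2* rose from 32.6 and 30.4 to 55.3 and 60.4 CPM (log2 fold change 0.87 ± 0.17, adjusted p = 0.027), and *Ank3* fell from 154 and 166 to 106 and 116 CPM (log2 fold change -0.54 ± 0.11, adjusted p = 0.029). Neither gene overlapped between genotypes.

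REST, a repressor that binds the RE1 element of many channel genes outside neurons, was read with its corepressors because the study examined it as a partner of *Eya1*. *Rest* had 8780 and 9123 reads in controls and 4584 and 3540 in *Eya1*cKO, and after scaling its log2 fold change was -0.29 (adjusted p = 0.077 by edgeR and 0.043 by DESeq2). Of 11 genes of this machinery none was called higher and 3 were called lower by edgeR (4.41% of all genes), where DESeq2 called 6 lower (6.64% of all genes). The 3 were *Rcor2* (log2 fold change -1.13, adjusted p = 0.0082), *Kdm1a* (-0.61, adjusted p = 0.0074) and *Hdac2* (-0.52, adjusted p = 0.016).

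Promoters of the channel genes were searched for the letters of that element. RefSeq windows of GRCm38.p6, from 250 bases before to 50 after a start, matched 86 of the 120 members with 120 windows, including 8 windows of 5 called genes (*Cacna1c*, *Cacna1d*, *Kcna2*, *Kcnc4* and *Kcne4*). On both strands the left part TCAGCACC was in 0.833% of the channel windows and 1.65% of all 32851 windows, and the right part GGACAGC in 10.8% and 6.56%. Both parts at a spacing of 2 bases were in none of the channel windows and in 0.0183% of all. Both parts in order and 2 to 9 bases apart were in 16 promoters of all, 1 of them of a channel gene, *Kcnh6*, which had no read in either *Eya1*cKO library, and among called genes only *Kcne4* held the right part. The stretches of both genes are shown with these parts in capitals.
Kcnh6: tattTCAGCACCacgacgcGGACAGCtccc
Kcne4: atatatcccaaGGACAGCagccgggctgtc
They lie at chr11:106007959-106007988 (+) and chr1:78816881-78816910 (+). In the same windows CAAGGTCA, which the steroidogenic regulator NR5A1 binds, was found in 1 channel window, that of *Kcnf1*, and in 1.56% of all. TGACGTCA, the cyclic AMP response element, was in no channel window and in 1.79% of all. A match describes the letters and is not a bound site. The lack of a match does not show that a gene has no RE1 element, as only exact letters in promoter windows were searched. The paper also described REST elements in introns and far from promoters.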

How the data were processed

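The authors sequenced random-primed, strand-specific libraries of sorted cells, mapped the reads to mm10 with HISAT2 and counted them on Ensembl genes with HTSeq. The deposited values are these raw counts per gene, without normalization. Tool versions of the mapping and the strand setting of the counting are not given in the sources used here, so that reads of the 36 members whose exons overlap another gene (34 of them on the opposite strand) could have been shared, and 3 of them, *Kcnj13*, *Kcna6* and *Kcnmb4*, share 49.1%, 39.6% and 31.5% of their exonic length. Rows of HTSeq that name no gene were left out of library sizes, and reads on no feature were 12.9% to 22.7% of a library's reads.

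Of 52636 gene identifiers, 52403 were paired with a symbol. Tests were run with edgeR 4.0.16 under R 4.3.3. Genes passed filterByExpr at a minimum count of 10, libraries were scaled by TMM, and *Eya1*cKO was compared with control over all genes with glmQLFit and glmQLFTest, with Benjamini-Hochberg adjustment and a threshold of 0.05. CPM are counts over TMM-scaled totals, SE was obtained by dividing the size of the log2 change by the root of the F statistic, and the limit of detection was 3 counts in each library, which covers counting error only. Coordinates, exonic lengths and coding sequences come from GENCODE M21 (GRCm38) and promoters from RefSeq (GRCm38.p6), and 34 members had no promoter entry. DESeq2 1.42.0 was an alternative, with other scalings, filters, a replicate block, thinned counts and each library left out. The tests were also run on simulated counts that gave both genotypes the same spread. Over the genes tested here the log2 difference between libraries had an SD of 0.418 in controls and 1.12 in *Eya1*cKO. The simulation therefore does not show how reliable the calls are.

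Genes named were the called genes, the 5 highest per kb in controls, the most counted of each class, up to 6 large changes that did not pass and up to 6 genes on which edgeR and DESeq2 differed (both by total counts), genes next to the limit of 10 reads, and other members of a class beside its counts. Results of some members are not reported here. The members and lists were chosen with earlier results of these data known. The marker lists not given beside a result were neural crest and Schwann cells (147 and 145 CPM in controls, 112 and 114 in *Eya1*cKO, 2 of 7 called higher and 1 lower), ureteric epithelium (202 and 209 against 134 and 112 CPM, 1 of 7 called lower) and erythroid cells, which had under 1 CPM in every library.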

Additional observations from a re-analysis of the deposited data

How the results depend on the processing

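With 2 libraries per genotype the calls rest on how the spread is estimated. Other settings changed the 1820 genes called in all to 1055 with no filter on low counts, 3113 by DESeq2 and 1096 by edgeR's legacy method, and leaving out 1 library to between 23 and 7925. The 10 channel genes called higher became 17 by DESeq2 and 6 by the legacy method, and between 0 and 37 without 1 library, and the 0 called lower became 1 by DESeq2 and between 0 and 12. Without either control library all 10 calls were lost, and without either *Eya1*cKO library all 10 passed. In each of these fits the lone library is assumed to vary like the pair of the other genotype, so that neither outcome measures stability. The 5 partner genes called became 3 without the filter, 9 by DESeq2, 3 with counts thinned to the shallowest library and between 0 and 19 without 1 library. The median log2 fold change of 0.55 became 0.32 without the filter, 0.70 with at least 10 counts in every library, 0.36 by DESeq2, 0.67 for members of at least 100 counts, and between 0.14 and 0.61 without 1 library.

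Replicate numbers did not pair the libraries (r = 0.0071 between the deviations of same-numbered libraries over 19041 genes). With the number as a replicate block, 621 genes, 5 channel genes and 3 partner genes were called, and *Cacna1c*, *Cacna1h*, *Kcna2*, *Kcne4* and *Scn3b*, and of the partners *Ank2* and *Ank3*, were not.

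Without the filter *Cacna1h* and *Kcne4* lost their call, with the legacy method *Cacna1h*, *Kcnc4*, *Kcne4* and *Scn3b*, and with thinned counts *Kcne4*. With at least 10 counts in every library *Kcnc4*, *Kcnk9* and *Scn3b* were not tested, the other 7 calls held, and *Kcnd3*, *Kcns3* and *Scn3a* were called as well. The log2 fold change of *Kcnh2* turned with library totals alone (0.0207). Leaving out 1 library gave both signs for 42 of the 98 channel genes tested, none of them called with all libraries. For 8 of these the ranges were -0.233 to 0.116 for *Kcnh2*, -0.456 to 0.0156 for *Cacna1a*, -0.692 to 0.233 for *Cacnb1*, -0.11 to 1.26 for *Kcne1l*, -0.69 to 2.11 for *Kcnip3*, -0.81 to 0.956 for *Kcnrg*, -0.28 to 0.996 for *Scn2b* and -0.15 to 0.409 for *Scn8a*. The cause was not tested.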

Other observations

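Noncoding genes that share the channel prefixes were not members. *Kcnq1ot1*, the imprinted noncoding RNA that runs against *Kcnq1*, had 6305 and 7062 reads in controls and 4141 and 3011 in *Eya1*cKO (log2 fold change -0.054, edgeR adjusted p = 0.75), while *Kcnq1* itself had 31 and 52 reads in controls and 100 and 0 in *Eya1*cKO. *Kcnmb4os2*, which overlaps exons of the BK beta subunit *Kcnmb4*, had 107 and 72 reads in controls and 0 and 4 in *Eya1*cKO (edgeR adjusted p = 0.10), where *Kcnmb4* had 243 and 219 against 115 and 111. *Kcnab3os* and *Kcnd3os* had at most 9 reads in any library.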
